A study of Arabidopsis thaliana and Zea mays with 822 samples.

Results

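The plants described here were 85 Arabidopsis T1 plants that carried the version 1 CasΦ-2 construct with AtPDS3 gRNA10 and grew at 23 °C, 43 of them in the Col-0 background (WT) and 42 in the rdr6-15 mutant background, a mutant line in the same accession. They were taken from the sample titles, which give the background, the construct version, the temperature and the plant number, out of 812 samples with mutation pattern counts and 822 samples in all. In version 1 an Arabidopsis UBQ10 promoter drives a codon optimized CasΦ-2 with nuclear localization signals at both ends of the protein, and the AtU6-26 promoter drives the guide RNA. The controls were 4 untransformed plants, all Col-0, so the comparison has no untransformed rdr6-15 plant beside it. Leaf tissue of plants labelled as 3 to 4 weeks old was used, with 1 amplicon library per plant. T1 plants are the first generation after Agrobacterium transformation, selected here on hygromycin, and each arises from its own transformation event. Both genotypes therefore hold plants that differ in transgene position and copy number, neither of which was measured in these libraries, and a leaf is a mosaic of cells that may carry different edits.

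RDR6 is an RNA-dependent RNA polymerase that copies single-stranded transcripts into double-stranded RNA, from which Dicer-like proteins make small interfering RNAs. Transcripts of transgenes are among its best known substrates, and rdr6 mutants are often used as hosts in which transgenes are silenced less. AtPDS3 encodes phytoene desaturase, an enzyme of carotenoid synthesis in the plastid, and its loss gives albino tissue. CasΦ-2 is a compact RNA-guided nuclease that cuts its target with a stagger on the side of the guide far from the PAM, and the repair of such cuts usually leaves deletions of several base pairs. The question asked of these plants was whether editing by the same construct differs when RDR6 is missing.

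The site is shown first because every result below is read from it. In the reference genome used here, TAIR10.1, the gRNA10 target lies on chromosome 4 at 8194265 to 8194284 on the plus strand, with its PAM at 8194262 to 8194264. AtPDS3 (AT4G14210) runs from 8190190 to 8195320 on the minus strand. The guide ends 1 base before the upper border of a coding exon of 89 bp (8194197 to 8194285), which is present in 3 of 3 annotated transcripts. Since the gene is read on the minus strand, the bases just above 8194285 are the last bases of the preceding intron, and 8194286 to 8194287 is its splice acceptor AG, read as CT on the plus strand. The target with its PAM in capitals, and a 66-base window (8194241 to 8194306) with the intron in capitals, read as follows.
gRNA10 target: TTGcagttgacaatccagccaat
AtPDS3 window: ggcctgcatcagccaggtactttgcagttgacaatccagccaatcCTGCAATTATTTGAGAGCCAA

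Each mutation pattern is named by its first affected position and its length, so that -5:9D is a 9-bp deletion (D) that starts at position -5, and I marks an insertion. Position -1 is the 18th base of the guide and position 1 the 19th, with no position 0, so position 3 is the last base of the exon and position 4 the first base of the intron. This frame was found from the reference bases that the single-base variants imply at 14 positions, which match AtPDS3 at 1 place. The single deletions with the 5 highest mean shares of the edited reads in either genotype, and those that led in 1 of the 5 plants of each genotype with the highest efficiency, are given on the same window with the deleted bases in capitals, because the comparison of the genotypes and of the strongest plants turns on them.
-5:9D: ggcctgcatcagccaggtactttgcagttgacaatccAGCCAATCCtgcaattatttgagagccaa
-5:8D: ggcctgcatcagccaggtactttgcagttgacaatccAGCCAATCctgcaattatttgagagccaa
-1:5D: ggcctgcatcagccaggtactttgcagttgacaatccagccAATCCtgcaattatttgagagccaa
-4:5D: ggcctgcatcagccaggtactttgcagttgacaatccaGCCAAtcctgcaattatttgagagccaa
-4:4D: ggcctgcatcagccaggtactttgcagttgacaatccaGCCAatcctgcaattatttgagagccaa
-4:8D: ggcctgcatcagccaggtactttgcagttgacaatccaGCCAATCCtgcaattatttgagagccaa
-8:13D: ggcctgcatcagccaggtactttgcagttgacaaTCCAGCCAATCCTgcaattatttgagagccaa
-16:24D: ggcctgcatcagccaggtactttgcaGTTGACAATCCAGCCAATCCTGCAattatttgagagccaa
-34:42D: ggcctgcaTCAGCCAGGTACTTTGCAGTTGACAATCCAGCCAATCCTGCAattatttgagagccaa

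Some of these deletions can be placed in more than 1 way. For -5:9D the 6 bases CAATCC stand both just before the deleted stretch and at its end, so that the same read can be written as a deletion of positions -11 to -3, which lies wholly within the exon.
-5:9D, lowest placement: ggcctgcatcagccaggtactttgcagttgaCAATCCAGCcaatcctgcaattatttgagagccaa
The repeat is CCTGCA for -34:42D, TGCA for -16:24D, CCA for -4:4D and CC for -1:5D, while -4:8D and -8:13D have none. The deposited names give the highest possible placement for all 148 single deletions counted here, of which 65 have a repeat of at least 1 bp at the junction and 29 of at least 2 bp. For 7 of the 148, -5:9D and -1:5D among them, whether the deletion reaches the intron depends on the placement.

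Library depths overlapped between the genotypes. The Col-0 libraries held 197725 to 3005247 reads and the rdr6-15 libraries 484563 to 2447357, with 12 and 11 libraries under 1000000 reads, and the controls held 463926 to 1824969. No pair of libraries held identical counts. Each library is a population of PCR copies without molecular identifiers, so intervals from read counts cover counting error only, and the tests below compare plants.

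The editing efficiency, the percentage of all reads of a plant that belong to patterns with an indel of 3 bp or more and a minimum of 100 reads, was higher in rdr6-15. Col-0 plants ranged from 0% through a median of 0.254% to 9.48% (n = 43), and rdr6-15 plants from 0.00855% through 1.72% to 18.2% (n = 42). The controls stood at 0%, 0%, 0.00937% and 0.00954%. The ranges of the genotypes overlapped over most of their length, but 3 rdr6-15 plants lay above the highest Col-0 plant, and the 4 T1 plants with no counted edit were all Col-0. The median of all pairwise differences between an rdr6-15 and a Col-0 plant was 1.08 percentage points (95% interval 0.422 to 2.01), and an rdr6-15 plant exceeded a Col-0 plant with probability 0.754 (two-sided permutation test of the rank sum, p = 4e-05, adjusted p = 0.00064 over 16 genotype comparisons).

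**Figure D1:**
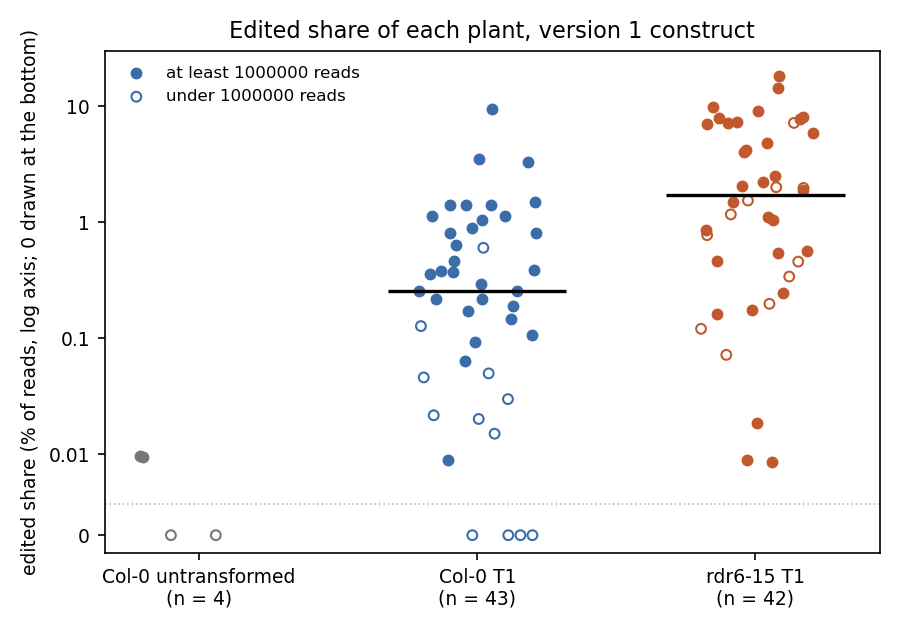
Editing efficiency (percent of reads, log axis with 0 drawn below the dotted line) of each plant, filled for libraries of at least 1000000 reads and open for smaller ones, with a line at the median of each T1 population. The medians are 0.254% in Col-0 and 1.72% in rdr6-15, and the highest control is at 0.00954%.

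The difference was larger in how many plants reached 1% than in how many lay above the controls, where most plants of both genotypes stood. It was present at the lower quartile (0.0568% in Col-0 and 0.458% in rdr6-15) and at the upper quartile (0.850% and 6.72%). An efficiency of at least 1% was reached by 10 of 43 Col-0 plants (23.3%) and 26 of 42 rdr6-15 plants (61.9%), an odds ratio of 5.36 (Fisher's exact test, two-sided, p = 0.000419, adjusted p = 0.00335). At 5% the counts were 1 and 12 (Fisher's exact test, p = 0.000728). Plants above every control numbered 38 of 43 in Col-0 (88.4%) and 40 of 42 in rdr6-15 (95.2%), which did not pass the test (Fisher's exact test, p = 0.433). A limit of 10 times the highest control left 30 and 38 plants (Fisher's exact test, p = 0.0283).

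The difference was present in both depth classes. Among libraries of at least 1000000 reads the median was 0.384% in Col-0 and 2.21% in rdr6-15 (31 plants each, probability 0.725, permutation test, p = 0.0018). Among smaller libraries it was 0.0208% (12 plants) against 0.772% (11 plants), with probability 0.947 (permutation test, p = 0.00011). All 4 Col-0 plants without a counted edit had libraries of the smaller class, with 606741 to 651457 reads, where 100 reads correspond to a larger share than in a deep library. The version 2 construct, whose nuclear localization signals are only at the C terminus, gave a probability of 0.688 (41 Col-0 and 23 rdr6-15 plants). The difference of 0.0659 between the constructs was not past the threshold when construct labels were permuted within genotype (permutation test, p = 0.455).

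A few plants held a large part of the edited reads of each population. In Col-0 the 5 plants with most edited reads held 64.2% of 730098 edited reads, and in rdr6-15 45.3% of 2333748. The 5 Col-0 plants with the highest efficiency were plant 33 (9.48%), plant 31 (3.47%), plant 36 (3.27%), plant 30 (1.49%) and plant 28 (1.41%). The 5 in rdr6-15 were plant 28 (18.2%), plant 33 (14.2%), plant 12 (9.80%), plant 37 (9.09%) and plant 32 (8.03%). The fifth plant of the rdr6-15 list was thus above the second of the Col-0 list.

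More distinct patterns were counted in rdr6-15 plants. Col-0 plants had 0 to 33 counted patterns with a median of 13, and rdr6-15 plants 1 to 93 with a median of 17.5, while 2 controls had 1 pattern each and the other two none. The shift was 7 patterns (95% interval 2 to 13), and an rdr6-15 plant had more with probability 0.692 (permutation test, p = 0.00197, adjusted p = 0.0105). The 3 plants with most patterns were all rdr6-15, plant 09 with 93, plant 37 with 52 and plant 10 with 51, against 33 in Col-0 plant 30. With at least 1000000 reads per library the medians were 15 and 21 (permutation test, p = 0.00999), and among smaller ones 1 and 11 (p = 0.00014 by the same permutation test).

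A plant with more edited reads can pass the minimum of 100 reads with more patterns. Within each genotype the number of counted patterns rose with the efficiency, with Pearson's r = 0.782 and Spearman's rho = 0.820 in Col-0 (n = 43, permutation test, p = 1e-05 for both, the smallest these permutations can give) and r = 0.636 and rho = 0.769 in rdr6-15 (n = 42, permutation test, p = 1e-05 for both), taken against the log10 of the efficiency plus 0.001%. Without the 2 plants farthest from the median efficiency r was 0.767 and 0.613. In libraries of at least 1000000 reads rho was 0.586 and 0.686, and in smaller ones 0.908 and 0.825. Both quantities come from the same reads. Each plant was also brought to 1000 edited reads, but the patterns drawn from had already passed the minimum of 100 reads, and at least 95% of a plant's counted patterns were kept in 27 of 30 Col-0 and 26 of 37 rdr6-15 plants, so this step corrected little for the number of edited reads. At 1000 edited reads, which 30 Col-0 and 37 rdr6-15 plants reached, 15.0 patterns were expected in the median Col-0 plant (range 7 to 32.7) and 18.9 in the median rdr6-15 plant (range 4 to 77.2). Against the efficiency, the number at 1000 edited reads gave r = 0.360 (permutation test, p = 0.0503) and rho = 0.416 (p = 0.0227) in Col-0, and r = 0.517 (permutation test, p = 0.00053) and rho = 0.606 (p = 0.00011) in rdr6-15. The difference between the genotypes fell just short of the threshold (shift 4.00 patterns, 95% interval 0 to 8.95, probability 0.638, permutation test, p = 0.0529, adjusted p = 0.176). It passed in the libraries of at least 1000000 reads, where the medians were 15 and 22.6 (permutation test, p = 0.00389), and when any 1 of 20 of the 67 plants was left out. Single plants aside, it did not pass under 7 of 12 alternatives. Among these were a minimum of 10 reads (probability 0.597, permutation test, p = 0.167) and patterns under 1% of the leading pattern left out (probability 0.571, permutation test, p = 0.326).

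The effective number of patterns weights patterns by their share of the edited reads, as the exponential of the Shannon index. It ranged from 1 through 6.59 to 16.2 in Col-0 (39 plants with counted edits) and from 1 through 7.59 to 25.6 in rdr6-15 (42 plants). The genotypes overlapped widely and the difference did not pass the test (shift 0.925, 95% interval -1.03 to 3.33, permutation test, p = 0.323). Evenness, the Shannon index over its maximum for the number of patterns in the plant, had a median of 0.819 in 33 Col-0 plants (0.0974 to 0.968) and 0.765 in 39 rdr6-15 plants (0.184 to 0.95). A higher value means that patterns share the edited reads more equally, and the difference was -0.0615 (95% interval -0.135 to 0.00523, permutation test, p = 0.0692, adjusted p = 0.185). It passed in libraries of at least 1000000 reads, with medians of 0.788 and 0.692 (permutation test, p = 0.0132), and when any 1 of 10 of the 72 plants was left out. Single plants aside, it did not pass under 6 of 12 alternatives. Evenness is taken over patterns of at least 100 reads, and Col-0 plants had fewer edited reads (median over all plants 5667 against 22561). The part of the number of edited reads in the evenness was not tested.

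**Figure D2:**
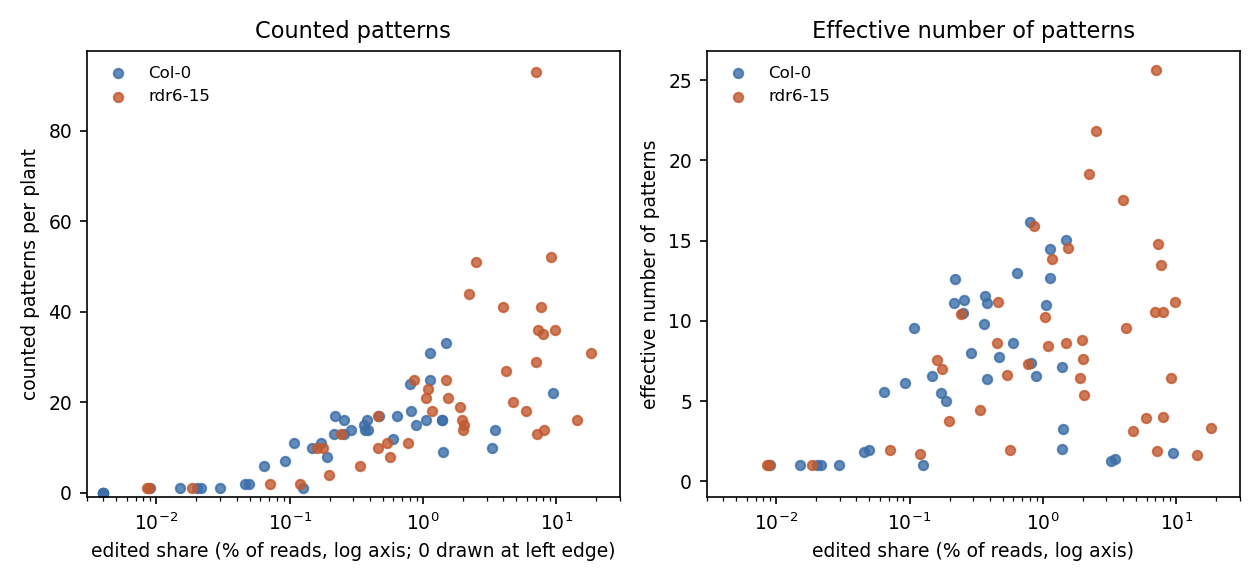
Counted patterns (left) and effective number of patterns (right) of each plant against its editing efficiency (percent of reads, log axis). Counted patterns climb with efficiency in both genotypes, up to 93 in rdr6-15 plant 09, while among the plants above 3% the effective number runs from 1.25 up to 25.6.

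High efficiency did not go with 1 kind of pattern composition. Col-0 plant 36 and Col-0 plant 31 had effective numbers of 1.25 and 1.42, because 96.4% and 94.4% of their edited reads were -5:9D. In rdr6-15 plant 33, 91.1% of the edited reads were -16:24D and the effective number was 1.67. At the other end, rdr6-15 plant 09, with an efficiency of 7.08%, had an effective number of 25.6 and a leading pattern, -5:9D, with 24.3% of its edited reads. The leading pattern held 16.6% to 100% of the edited reads in Col-0 with a median of 40.9%, and 18.2% to 100% in rdr6-15 with a median of 34.4%, a difference of -3.01 percentage points (95% interval -12.3 to 4.22, permutation test, p = 0.424). Among plants with at least 1000 edited reads the leading pattern held over 50% in 7 of 30 Col-0 and 10 of 37 rdr6-15 plants.

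The 9-bp deletion -5:9D was the most frequent pattern in both genotypes. It led in 24 of 39 Col-0 and 20 of 42 rdr6-15 plants and was counted in 37 and 42. Its share of the edited reads ran from 0% through a median of 26.1% to 100% in Col-0, and from 0.448% through 22.4% to 100% in rdr6-15. It was also the only pattern counted in 5 of the 6 Col-0 plants and in all 3 rdr6-15 plants with a single counted pattern. These were plants of low efficiency, and in the rdr6-15 plants 13, 16 and 22 it made up 0.00882%, 0.00855% and 0.0185% of all reads.

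The same deletion was present in the untransformed plants. Their libraries held 16, 14, 171 and 135 reads of -5:9D, 0.00345%, 0.00220%, 0.00937% and 0.00954% of all reads, the last with a 95% Wilson interval of 0.00806% to 0.0113%. No other indel pattern reached 100 reads in a control. Its share of all reads did not exceed every control in 4 Col-0 and 2 rdr6-15 plants, and was above every control in 39 and 40 plants, up to 3.28% and 11.2%. The source of these control reads was not tested.

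Other short deletions followed in both genotypes. The 8-bp deletion -5:8D, which takes the last bases of the exon and none of the intron, led in 2 Col-0 and 3 rdr6-15 plants, with mean shares of 7.43% and 8.20% of the edited reads. The 5-bp deletion -1:5D led in 2 plants of each genotype, with mean shares of 6.35% and 7.19%. The 5-bp deletion -4:5D led in 3 rdr6-15 plants and in 0 Col-0 plants, with mean shares of 4.51% in Col-0 and 6.19% in rdr6-15. The 4-bp deletion -4:4D and the 8-bp deletion -4:8D had mean shares of 4.57% and 4.02% in Col-0 and of 4.80% and 5.08% in rdr6-15. Each of these 5 patterns was counted in 28 to 31 Col-0 plants and in 35 or 36 rdr6-15 plants, so their presence, like that of -5:9D, was common to most edited plants.

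Long deletions led in single plants. The 24-bp deletion -16:24D, as labelled, removes most of the guide site and runs 5 bases into the intron. In its lowest placement it ends at position 4, the first base of the intron. It was counted in 28 plants of each genotype, with median shares of 2.35% and 1.36% of the edited reads. It led in Col-0 plant 16, where it held 47.9%, and in the rdr6-15 plants 33 and 12, where it made up 13.0% and 2.78% of all reads. The 42-bp deletion -34:42D was counted in 13 Col-0 and 10 rdr6-15 plants and led only in rdr6-15 plant 37, with 62.4% of its edited reads. The 13-bp deletion -8:13D held 56.3% of the edited reads in rdr6-15 plant 32 and was counted in 3 other plants, at 0.0338% of all reads or less. A pattern could thus be rare in the population and still lead in the plant that carried it.

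The most strongly edited Col-0 plant, plant 33, was led by a compound pattern, a 17-bp deletion with a 4-bp insertion beside it (-15:4I,-13:17D), a net loss of 13 bp. It held 88.3% of the edited reads and 8.37% of all reads of that plant. The pattern was counted in no other plant, though reads of it were listed in 55 others, at 0.00405% or less, and 18 reads in the controls. Patterns with an insertion were counted in 2 Col-0 and 8 rdr6-15 plants. The next highest plant was rdr6-15 plant 30, with an insertion share of 32.5% of its edited reads, led by a 5-bp insertion at position 5. The difference between the genotypes did not pass the test (probability 0.566, permutation test, p = 0.0884), but passed it without Col-0 plant 33 or Col-0 plant 38, the 2 Col-0 plants with insertions (permutation test, p = 0.0263 and p = 0.0305).

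**Figure D3:**
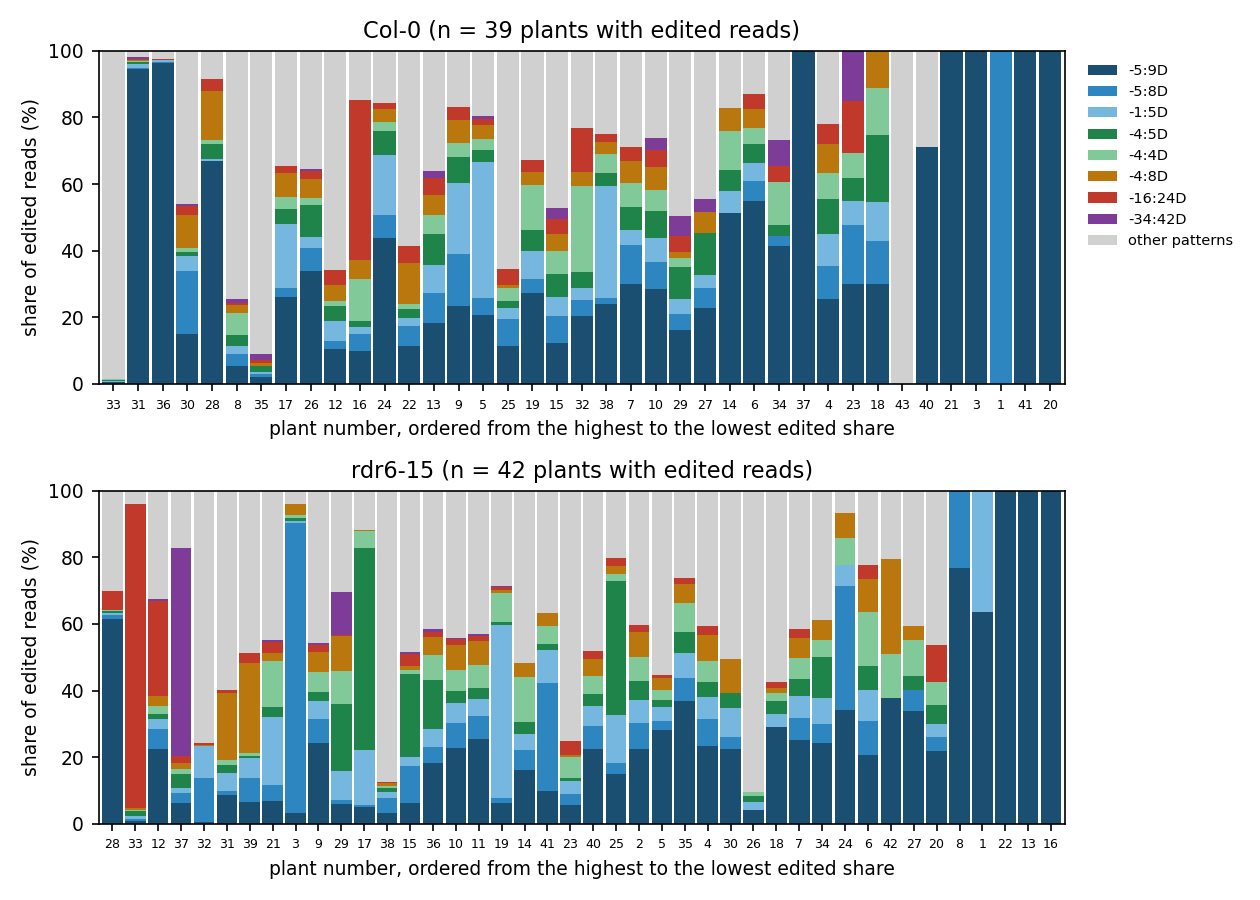
Share of the edited reads (percent) held by 8 named patterns and by all others (grey) in each plant with counted edits, ordered from the highest to the lowest editing efficiency, Col-0 above and rdr6-15 below. The darkest blue, -5:9D, leads in 24 Col-0 and 20 rdr6-15 plants, and the plants with a single colour at the right are those of low efficiency with 1 counted pattern.

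In all, 169 distinct patterns were counted, 88 in Col-0 and 145 in rdr6-15. The 64 found in both genotypes were 72.7% of the Col-0 patterns and 44.1% of the rdr6-15 patterns, and held 65.7% and 91.2% of the edited reads. The compound pattern of Col-0 plant 33 was counted in no rdr6-15 plant and is thus outside the Col-0 share. It alone held 227951 of the 730098 Col-0 edited reads, and 88.3% of those of the Col-0 plant with most of them. Patterns counted in 1 plant only numbered 77, 22 in Col-0 and 55 in rdr6-15. By kind, 148 were single deletions, 7 were deletions in 2 parts and 14 held an insertion, 3 of them an insertion alone. These totals grow with the number of edited reads, which was larger in rdr6-15. Several patterns, among them -13:13D, -13:1D,-7:12D and -12:15D,6:2I, were counted only in Col-0 plant 33. They share the net loss of 13 bp of its leading pattern. Whether they are other ways to align the same edit was not tested, so distinct patterns need not be distinct edits.

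When each of the 48 patterns counted in at least 5 plants was tested for its share of the edited reads, 0 passed in either direction, so 0% were called as higher and 0% as lower in rdr6-15 (permutation test of the rank sum, adjusted p under 0.05, smallest adjusted p = 0.0785). At an unadjusted p under 0.05 there were 14, of which 14 were higher and 0 lower in rdr6-15. The 5 plants could come from either genotype, and 5 of the 48 patterns, 4 of these 14, were counted in no Col-0 plant and so could come out in 1 direction only. The smallest p belonged to -5:10D, named here after its values were seen. It was counted in 11 of 39 Col-0 plants (28.2%) and 26 of 42 rdr6-15 plants (61.9%), with mean shares of 0.95% and 2.00% (permutation test, p = 0.00308, adjusted p = 0.0785). A share is 0 wherever a pattern stays under 100 reads, and Col-0 plants had fewer edited reads. The part of the number of edited reads in these values was not tested.

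The pattern profiles were not shown to separate by genotype. The mean Bray–Curtis distance between the pattern profiles of 2 plants, which is 0 for equal and 1 for disjoint profiles, was 0.669 between genotypes, 0.649 within Col-0 and 0.683 within rdr6-15. The excess of between over within was 0.00241 (one-sided permutation test, p = 0.243). The mean distances within and between genotypes were thus close to each other and far from 0.

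Deletion sizes overlapped almost fully. The read-weighted mean size of the deletions in a plant ranged from 6 bp through 9.00 bp to 23.5 bp in Col-0, and from 5.98 bp through 9.00 bp to 31.2 bp in rdr6-15. Only patterns without an insertion entered these means. The leading pattern of Col-0 plant 33, with 88.3% of its edited reads, was therefore left out. The shift was 0 bp (95% interval -0.797 to 0.715, permutation test, p = 0.96). The largest means belonged to plants led by long deletions, 31.2 bp in rdr6-15 plant 26, 30.5 bp in rdr6-15 plant 37 and 23.5 bp in Col-0 plant 12. The counted deletions removed 3 to 50 bp.

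By size class, 9-bp deletions held 39.2% ± 5.23 (SEM, n = 39) of the edited reads in Col-0 and 27.7% ± 4.07 (SEM, n = 42) in rdr6-15. The classes next in order were 8 bp, with 11.6% ± 2.63 and 13.3% ± 2.47 (SEM), and 5 bp, with 11.1% ± 1.84 and 13.7% ± 2.48 (SEM). Deletions of 3 bp were close to absent, with 0% and 0.0299%, and were counted in 5 rdr6-15 plants. Deletions over 10 bp had a median share of 7.56% in Col-0 (0 to 91.2%) and 15.9% in rdr6-15 (0 to 93.7%), a shift of 4.19 percentage points that did not pass the test (95% interval -1.41 to 11.8, permutation test, p = 0.162). In the size classes and in this share, patterns with an insertion were not counted as deletions but stayed among the edited reads. The size classes themselves were not tested one by one.

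**Figure D4:**
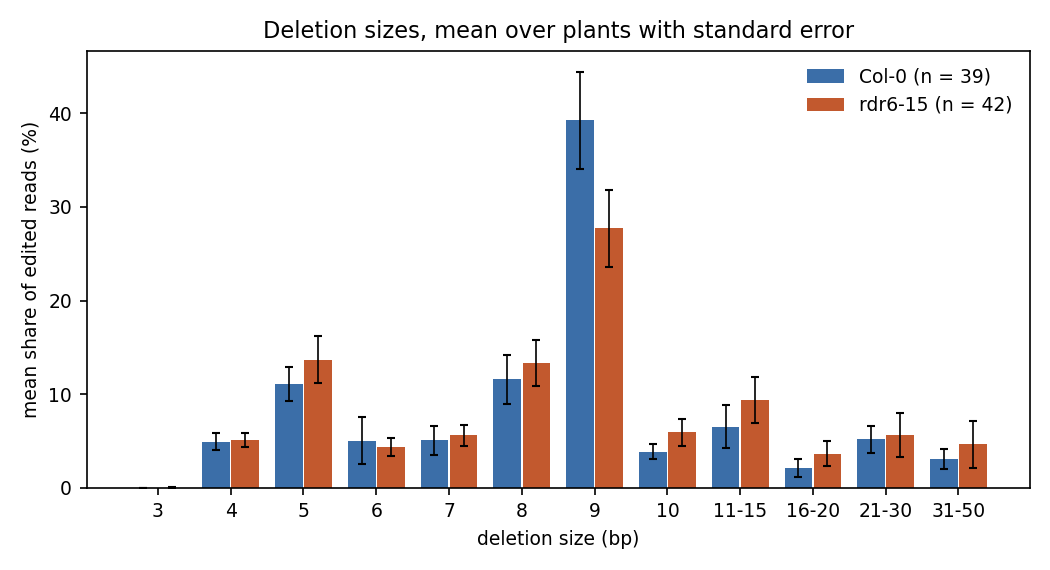
Mean share of the edited reads (percent, bars from 0, with the standard error over plants) by deletion size in bp, for 39 Col-0 and 42 rdr6-15 plants. The 9-bp class is the tallest in both genotypes, at 39.2% and 27.7%, and the 3-bp class is at or close to 0% in both.

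Lengths in multiples of 3, which keep the reading frame where they lie within an exon, held a median of 50.1% of the edited reads in Col-0 and 41.4% in rdr6-15. The shift was -10.8 percentage points (95% interval -22.7 to 0) and fell just short of the threshold (permutation test, p = 0.0549, adjusted p = 0.176), which it passed when any 1 of 31 of the 81 plants was left out. Of the 169 patterns 49 had such a length, and -5:9D had the largest mean share of the edited reads among them in both genotypes. In libraries above 1000000 reads the medians were 41.8% and 41.9%, and in the smaller ones 100% (8 Col-0 plants) and 37.8% (11 rdr6-15 plants).

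Where the deletions were centred depended on their placement. As labelled, in the highest placement, position -1 was deleted in 99.5% ± 0.145 (SEM, n = 39) of the edited reads of a Col-0 plant and in 98.5% ± 0.779 (SEM, n = 42) of those of an rdr6-15 plant, and position 1 in 95.2% and 94.1%. The share dropped steeply on both sides, from 69.9% at position -5 to 19.4% at position -6 in Col-0 and from 63.6% to 23.1% in rdr6-15. On the intron side it dropped from 77.4% at position 4 to 18.3% at position 5 in Col-0 and from 73.5% to 23.4% in rdr6-15. Deletions most often began at -5, with a mean of 50.5% of the edited reads in Col-0 and 40.6% in rdr6-15, or at -4, with 16.9% and 21.4%, and most often ended at position 4, with 56.8% and 50.1%. These limits are largely the ends of -5:9D as labelled. With every single deletion at its lowest equivalent placement, an alternative chosen after seeing the data, position -1 was deleted in 57.0% ± 5.11 (SEM, n = 39) of the edited reads in Col-0 and 67.3% ± 3.97 (SEM, n = 42) in rdr6-15. The most often deleted position was then -3, with 94.7% and 93.4%, and position 4 had 25.3% and 31.2%. Under both placements most edited reads lost bases within the far end of the guide site, and no test was made by position.

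**Figure D5:**
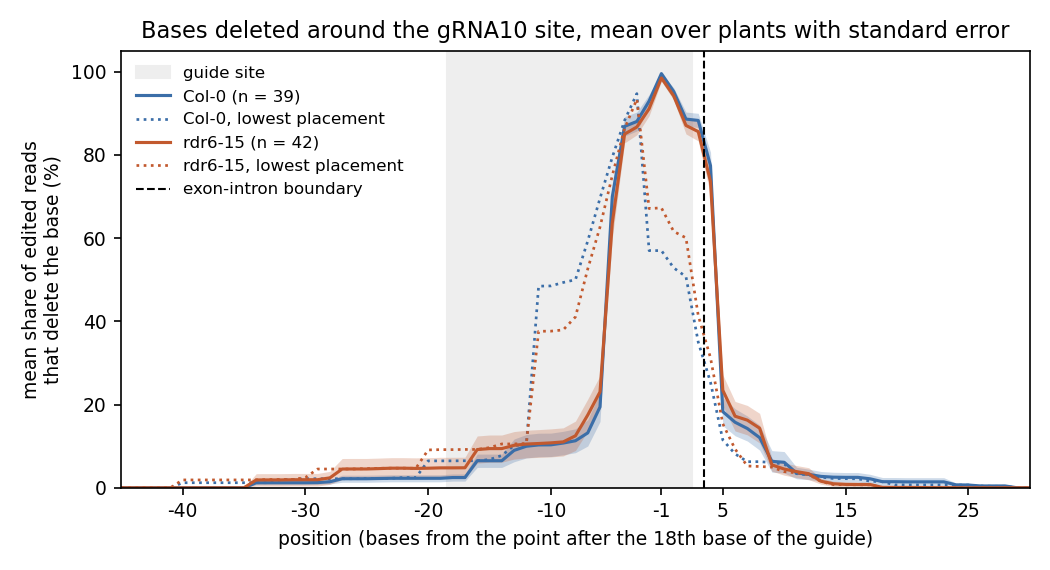
Mean share of the edited reads (percent) that delete each position around the gRNA10 site, with the standard error over plants as a band, against distance in bases from the point after the 18th base of the guide. As labelled (solid lines) both genotypes peak at position -1 (99.5% and 98.5%), while with each deletion at its lowest equivalent placement (dotted lines) they peak at -3 (94.7% and 93.4%), and the dashed line marks the exon-intron boundary between positions 3 and 4.

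Most edited reads were labelled with deletions that reach the intron. As labelled, deletions with bases on both sides of the boundary held a median of 80.5% of the edited reads in Col-0 (0 to 100%) and 74.6% in rdr6-15 (9.10 to 100%), a shift of -3.14 percentage points (95% interval -11.6 to 3.82, permutation test, p = 0.351). If a read was counted only where every equivalent placement crosses the boundary, the medians were 19.9% and 28.7% (permutation test, p = 0.171). The gap between both readings comes largely from -5:9D, whose deletion can be written wholly within the exon and leaves the bases at the splice acceptor as in the reference. All placements of -5:9D write the same read, so its label across the boundary does not mean a loss of the splice acceptor. The genotypes overlapped under both readings.

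Indels of 1 or 2 bp are left out of the efficiency. Patterns of that size with at least 100 reads were counted in 4 Col-0 and 7 rdr6-15 plants, at 0.0235% and 0.0396% of all reads or less, with a median of 0% in both genotypes (permutation test, p = 0.222). The most frequent was a 1-bp insertion at position 5, in 2 Col-0 and 4 rdr6-15 plants.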

How the data were processed

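The authors amplified the target by 2 rounds of PCR, trimmed reads with Trim Galore, mapped them with BWA-MEM 0.7.17 and exported CrispRVariants patterns. The deposited values are read counts per pattern and library, without normalization. The record of a Col-0 version 1 sample lists TAIR10 as genome build. The study's methods name that build for the whole genome reads and none for the amplicon. Everything else was computed in Python 3.11.15 (SciPy 1.17.1, NumPy 2.4.6), and matplotlib 3.10.9 drew the figures. The file total is the depth. Counted patterns have an indel of 3 bp or more and a minimum of 100 reads, the criterion in the study's methods. The study names the Mann–Whitney test, and its rank sum was used with 100000 permutations, two-sided. Benjamini–Hochberg adjustment was over 16 comparisons. Besides rank-sum tests these held the Fisher's exact tests for 1% and for the controls, the one-sided profile test and the construct test. Calls in these 16 are at an unadjusted p under 0.05, and adjustment changed none of them, while single patterns are called at an adjusted p under 0.05. Pattern number at 1000 edited reads is the expected number on drawing them without replacement. The script was tested on simulated libraries. Plants of 1 genotype are separate transformants. Patterns named lead in at least 3 plants of a genotype, have the 5 highest mean shares, lead in 1 of the 5 plants with the highest efficiency per genotype, or were counted in a control. Members, measures and rules were chosen with earlier results of these data known. Alternatives covered read minimums, depth, control patterns, single plants and means.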

Additional observations from a re-analysis of the deposited data

Results flagged for a closer look

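Reads that the efficiency leaves out also exceeded the controls. Reads of the class labelled Other, which the deposited patterns do not resolve further, were above every untransformed plant (at most 0.00261% of reads) in 30 Col-0 and 34 rdr6-15 plants. The highest share was 1.36% in Col-0 plant 12 and 6.66% in rdr6-15 plant 32, whose efficiencies were led by -27:50D and -8:13D. Medians were 0.0112% in Col-0 and 0.0232% in rdr6-15, with probability 0.637 that an rdr6-15 plant is higher (permutation test, two-sided, p = 0.0302).

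Indels of at least 3 bp in patterns under 100 reads summed to more than in every control in 36 Col-0 and 39 rdr6-15 plants, where the controls held 0.00818% to 0.0238% of reads. The medians were 0.0545% and 0.103%, with probability 0.739 (permutation test, two-sided, p = 4e-05), so that the direction among the uncounted patterns was that of the counted ones. Indels of 1 or 2 bp with at least 100 reads were present in 4 Col-0 and 7 rdr6-15 plants and in 0 controls.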

How the results depend on the processing

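Values here are the probability that an rdr6-15 plant is higher, unless a difference is named. Editing efficiency and counted patterns kept direction and call under all 13 alternatives each and without any single plant (0.748 to 0.770 and 0.684 to 0.704), and the share of plants at 1% or more under both of its alternatives. The single patterns (0 called) also kept theirs, as did Spearman's rho of pattern number against efficiency, while Pearson's r lost the call in Col-0 at 1000 edited reads (r = 0.360, permutation test, p = 0.0503), and every other measure changed call or direction under at least 1 alternative. With a minimum share of 0.01% of the reads per pattern, patterns at 1000 edited reads (0.755), effective number (0.664), evenness (0.348), deletions over 10 bp (0.641) and multiples of 3 (0.344) passed the threshold, and mean size turned (0.517). With -5:9D left out as a control pattern, patterns at 1000 edited reads (0.645) and evenness (0.269) passed, and effective number (0.477), leading share (0.577), boundary crossing (0.507) and the profile excess (-0.000345) turned. With libraries thinned to the smallest, patterns at 1000 edited reads (0.886), effective number (0.752), leading share (0.298), deletions over 10 bp (0.675) and crossing (0.346) passed, and mean size turned (0.564). The minimum of 100 reads was kept when thinning, so fewer plants were compared. These were 13 Col-0 and 27 rdr6-15 plants for patterns at 1000 edited reads, and 27 and 37 for the other measures named. With a minimum of 10 reads, evenness (0.295) and insertions (0.627) passed and leading share turned (0.513). With means, the differences in patterns at 1000 edited reads (7.02) and in multiples of 3 (-12.4 points) passed, and insertions turned (-1.39 points), as did mean size (0.493 bp higher in rdr6-15). In libraries of at least 1000000 reads, patterns at 1000 edited reads (0.722) and evenness (0.311) passed, and leading share (0.516), crossing (0.535) and the difference between constructs (-0.0996) turned. In smaller libraries (8 Col-0 and 11 rdr6-15 plants), effective number (0.875), leading share (0.159), deletions over 10 bp (0.773) and multiples of 3 (0.205) passed. Without the plant of highest efficiency in each genotype, evenness (0.363) and multiples of 3 (0.352) passed, as did multiples of 3 in plants with at least 1000 edited reads (0.350). Counting only deletions that cross the boundary in every placement, chosen after seeing the data, turned crossing (0.589), and the lowest placement, also chosen then, moved the share of edited reads deleting position -1 to 57.0% in Col-0 and 67.3% in rdr6-15. With no read minimum, 1 and 2 bp indels passed (0.671), and with a limit of 10 times the highest control the difference in plants above it (20.7 points) passed. Leaving out single plants moved patterns at 1000 edited reads between 0.628 and 0.656, evenness between 0.355 and 0.386, mean size between 0.484 and 0.509, multiples of 3 between 0.360 and 0.385 and insertions between 0.556 and 0.581, each with a change of call or direction. The cause of these changes was not tested. An alternative not named here for a measure left its call and direction as they were. Plant numbers do not pair the plants (correlation of equal numbers 0.0437, 42 pairs), and the replicate block changed evenness only (0.375, permutation p = 0.0348). Single patterns stayed at 0 called of 48, of 48 and of 32 under both alternatives. Under 100 reads a pattern is not seen, which limits the smaller libraries most.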
